A study of Gossypium hirsutum with 6 samples.

Results

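The genes described here were strongly reduced in ovules of the fiberless cotton mutant Xu142fl but were still listed above 0 in at least 1 of its libraries. They were chosen by measured FPKM, the number of sequenced fragments scaled to transcript length and to the mapped reads of a library. A member had at least 2 FPKM in each Xu142 library, a highest Xu142fl value of at most 1/5 of its lowest Xu142 value, and at least 1 Xu142fl value above 0. Of the 65894 genes in the deposited table, 150 were members. They made up 0.396% of the 37862 genes with at least 2 FPKM in each Xu142 library. A total of 152 genes met the FPKM limits, and 2 of them, Gh_D12G1628 (MML3) and Gh_A13G0689, were left out by ID. Another 25 genes had at least 2 FPKM in each Xu142 library but were listed at 0 in all 3 Xu142fl libraries, so they were not members either. Because the rule used the contrast between the lines, the differences given for members are a description. Their rows in the fit over all genes are given in that sense and are no independent test.

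RNA came from ovules of field-grown upland cotton (Gossypium hirsutum). Both groups were mixtures of ovules taken at -3 and -1 DPA, that is 3 and 1 days before the flower opens, and the share of each stage in a mixture was not stated. The mutant group was Xu142fl (Xuzhou142fl), and the group it was set against was its wild type Xu142 (Xuzhou142). Each line had 3 libraries, described by the study as biological replicates. How plants were divided among them was not stated, so p-values measure the spread between these libraries. The stocks differ by line, and no single edited gene separates the groups. In bulk ovules, fewer cells of a type and less RNA per cell cannot be told apart.

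Cotton fibers are single cells that grow out of the outer epidermis of the ovule. Lint fibers become visible around the day of flowering, but the cells are set apart before that. MYB transcription factors of the MIXTA-like group act early in this choice, and MML3 is among those needed for fiber. Upland cotton is an allotetraploid, so most genes exist as a copy in the A subgenome and one in the D subgenome. A gene ID holds the chromosome and a number that follows the order along it. Thus Gh_A06G1157 lies on chromosome A06. IDs starting with Gh_Sca lie on unplaced scaffolds, and IDs starting with BGI_novel were predicted from these reads.

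The summed FPKM of a library was between 804997 and 844877. The values hold no read counts, so the precision of a single value from depth is unknown. One library of each line stood apart from the others of its line, Xu142fl replicate 1 and Xu142 replicate 2. Between libraries of a line the median absolute log2 difference over genes was 0.282 and 0.355 for Xu142fl replicate 1 with replicates 2 and 3, and 0.170 for replicates 2 and 3. In Xu142 it was 0.268 and 0.239 for replicate 2 with replicates 1 and 3, and 0.140 for replicates 1 and 3. The 2 libraries also shared a deviation across the lines. Their median absolute log2 difference from each other was 0.290, smaller than that between Xu142fl replicates 1 and 3, and their deviations from the line means correlated at r = 0.400 across genes, which are not independent replicates. The source of this was not tested. MML3 on chromosome D12 (Gh_D12G1628), left out of the members by ID, had 0.18, 0.37 and 0.28 FPKM in Xu142fl and 61.49, 54.55 and 51.83 FPKM in Xu142. The labels of all 6 libraries thus matched the level of this fiber regulator. No marker of another ovule cell type had an ID in the sources used here, so the cell makeup of the ovules was not tested.

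Together the members held a small but visible part of the ovule mRNA of the wild type. Their FPKM summed to 412.19, 395.24 and 409.82 in Xu142fl replicates 1 to 3, against 4792.05, 4706.33 and 4746.39 in Xu142. This was 0.0512, 0.0480 and 0.0486% of all FPKM in Xu142fl and 0.567, 0.569 and 0.567% in Xu142. The mean level of a member in Xu142fl ranged from 0.00667 to 67.3 FPKM, with a median of 0.422 and quartiles of 0.148 and 1.45. In Xu142 it ranged from 2.16 to 491 FPKM, with a median of 8.49 and quartiles of 3.93 and 20.4. Most members were weakly expressed in the mutant: 104 of 150 averaged under 1 FPKM there and 26 under 0.1 FPKM, while 10 averaged at least 10 FPKM. All 3 Xu142fl libraries were above 0 for 121 members, 2 were for 16 members, and 1 was for 13 members.

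**Figure D1:**
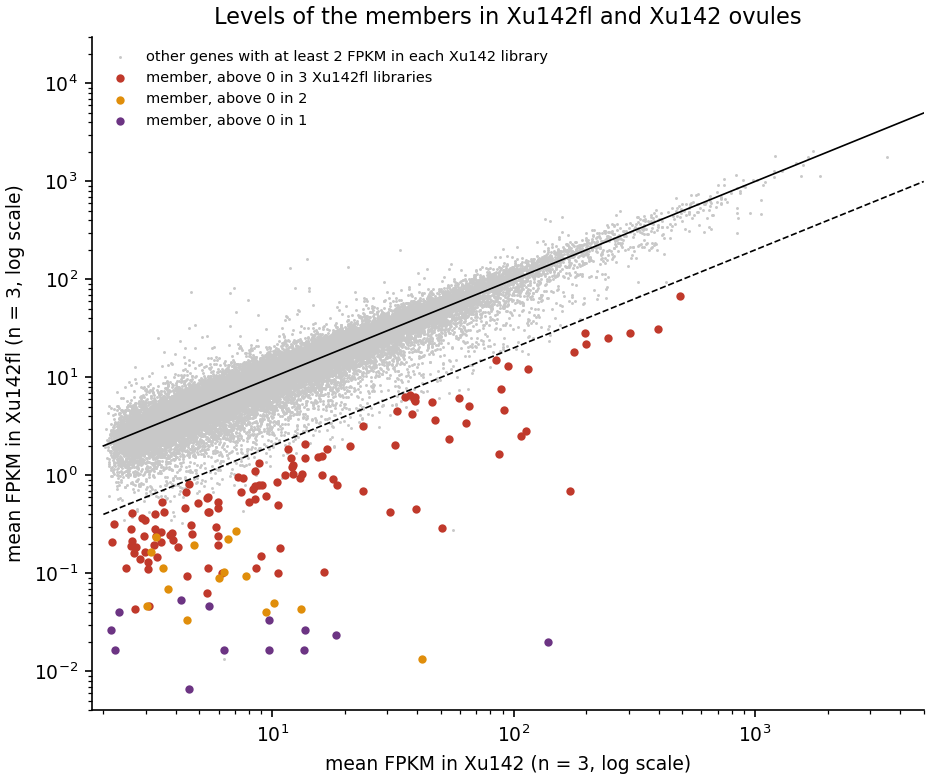
Mean FPKM of each gene in Xu142fl (vertical axis) against that in Xu142 (horizontal axis), both on log scales and over 3 libraries. Grey points are other genes with at least 2 FPKM in each Xu142 library (those listed at 0 in Xu142fl are not drawn), colored points are the 150 members by the number of Xu142fl libraries above 0, the solid line marks equal levels and the dashed line 1/5; members span 2.16 to 491 FPKM in Xu142, and those above 0 in 1 Xu142fl library lie near the bottom.

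The level left in the mutant was a continuous range rather than one value. The mean in Xu142fl was between 0.0144 and 18.1% of the mean in Xu142, with a median of 6.77% and quartiles of 2.09 and 10.5%. Members with a mean less than 10-fold lower in Xu142fl numbered 43. Another 50 were 10- to 20-fold lower, 20 were 20- to 50-fold lower and 37 were at least 50-fold lower. All 43 members of the first class were above 0 in all 3 Xu142fl libraries, against 14 of the 37 in the last class. A library at 0 lowers the mean that sets the class, so this difference was in part built in. The residual share ranged from 0.0144 to 14.5% (median 9.81%) for the 12 members with at least 100 FPKM in Xu142. It was 0.0320 to 17.9% (median 8.02%) for the 52 members between 10 and 100 FPKM. For the 86 members under 10 FPKM it was 0.147 to 18.1% (median 6.04%). The ranges, capped at the top by the rule, overlapped almost fully, while the median was lower at lower levels. The rule set the highest mutant value against the lowest wild-type value, so genes with more spread passed only at a lower share. The order of the medians is therefore no independent result. Neither the deposited table nor the RefSeq genes pair the member IDs with gene names, so the members are described by level and place alone.

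The 10 members with the highest level in Xu142 split into 8 that kept a clear signal in the mutant and 2 that were nearly lost from it. The highest was Gh_Sca125018G01, with 58.81, 62.69 and 80.34 FPKM in Xu142fl and 548.63, 446.13 and 477.37 FPKM in Xu142. It averaged 67.3 ± 11.5 FPKM in Xu142fl and 491 ± 52.5 FPKM in Xu142 (SD, n = 3 each), a 7.29-fold lower mean. No other member had as much FPKM in the mutant. Gh_D12G1971 had 26.54, 32.43 and 34.36 FPKM in Xu142fl and 397.45, 373.86 and 417.32 FPKM in Xu142, a 12.7-fold lower mean. Gh_D13G1363 had 30.55, 28.74 and 26.76 FPKM in Xu142fl and 257.98, 348.31 and 303.49 FPKM in Xu142, a 10.6-fold lower mean. The Xu142fl values of both genes lay close together, while their gap to the Xu142 values was required by the rule.

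Gh_D05G0407 had 29.95, 22.77 and 22.53 FPKM in Xu142fl and 226.97, 258.82 and 254.44 FPKM in Xu142, a 9.84-fold lower mean. Gh_A05G0305 had 31.69, 26.50 and 27.78 FPKM in Xu142fl and 179.02, 215.17 and 200.30 FPKM in Xu142, a 6.92-fold lower mean. With Gh_Sca125018G01, Gh_D12G1971 and Gh_D13G1363 these were the 5 members with the highest level in the mutant. Gh_D06G2371 had 24.98, 22.06 and 18.16 FPKM in Xu142fl and 193.29, 204.22 and 203.02 FPKM in Xu142, a 9.21-fold lower mean. Gh_D13G0139 had 22.41, 16.65 and 15.27 FPKM in Xu142fl and 145.68, 222.98 and 162.87 FPKM in Xu142, a 9.78-fold lower mean. Gh_Sca039018G01 had 14.94, 10.95 and 10.35 FPKM in Xu142fl and 87.24, 143.94 and 111.46 FPKM in Xu142, a 9.45-fold lower mean. In the 5 genes of this paragraph Xu142fl replicate 1 was the highest mutant library, and replicate 2 was the highest Xu142 library. Both are the libraries that stood apart.

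The other 2 of the 10 had almost no signal in the mutant. Gh_A09G1977 had 1.19, 0.41 and 0.49 FPKM in Xu142fl and 140.65, 216.01 and 158.20 FPKM in Xu142, a 246-fold lower mean. Gh_A06G1157 was listed at 0.06, 0 and 0 FPKM in Xu142fl and had 157.56, 115.70 and 144.85 FPKM in Xu142. Its residual share of 0.0144% was the lowest of the 150 members, and it rested on a single mutant library. By level in Xu142 it stood between Gh_A09G1977, with a residual share of 0.406%, and Gh_Sca039018G01, with 10.6%.

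**Figure D2:**
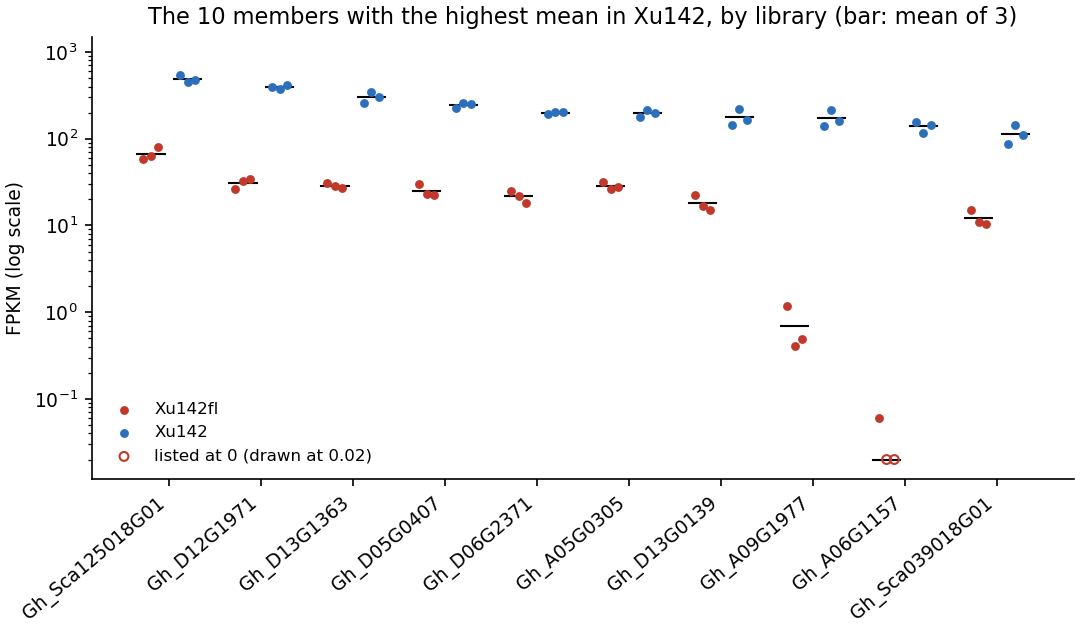
FPKM (log scale) in each of the 6 libraries for the 10 members with the highest mean in Xu142, with Xu142fl left of Xu142 for each gene replicates as single points and bars at the mean of 3 libraries. Hollow points stand for values listed at 0 and are drawn at 0.02 FPKM; 8 genes keep 10.35 to 80.34 FPKM in Xu142fl, while Gh_A09G1977 has at most 1.19 and Gh_A06G1157 at most 0.06 FPKM there.

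After Gh_A06G1157, the members with the lowest residual share had moderate or low levels in the wild type. Gh_D08G2655 was listed at 0.02, 0 and 0.02 FPKM in Xu142fl and had 38.03, 48.04 and 39.05 FPKM in Xu142. Gh_D02G0431 was listed at 0, 0.05 and 0 FPKM in Xu142fl and had 15.61, 10.36 and 14.59 FPKM in Xu142. Gh_D05G3616 was listed at 0.07, 0 and 0 FPKM in Xu142fl and had 15.98, 23.48 and 15.92 FPKM in Xu142. Each was near the edge of detection in the mutant, so a ratio of means would rest on 1 or 2 small values. The predicted gene BGI_novel_G001188 was listed at 0.02, 0 and 0 FPKM in Xu142fl and had 5.04, 3.52 and 5.03 FPKM in Xu142. These genes differed from the 25 genes listed at 0 in all 3 Xu142fl libraries by traces of at most 0.07 FPKM. Those 25 genes averaged 2.42 to 91.8 FPKM in Xu142, with a median of 5.58 FPKM, and the 29 members with 1 or 2 Xu142fl libraries at 0 averaged 2.16 to 139 FPKM, with a median of 6.30 FPKM.

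A strong reduction with values above 0 in every mutant library was also found, in genes singled out here after their values were seen. Gh_A07G2318 had 0.20, 0.29 and 0.38 FPKM in Xu142fl and 51.30, 49.50 and 51.05 FPKM in Xu142, a 175-fold lower mean. Its Xu142 libraries differed by a coefficient of variation of 1.93%, below that of most members. Gh_A10G2273 had 0.15 FPKM in each Xu142fl library and 11.50, 7.84 and 7.66 FPKM in Xu142, a 60.0-fold lower mean. For these 2 genes the small mutant value was above 0 in each library, as in 121 members in all. A low level in every mutant library was required of all members by the rule.

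The limit of 1/5 cut through a gradual decline. Just inside it was Gh_D05G0866, with 0.29, 0.49 and 0.47 FPKM in Xu142fl and 2.45, 2.45 and 2.95 FPKM in Xu142. Gh_D07G2326 had 1.5, 2 and 2.08 FPKM in Xu142fl and 10.41, 11.81 and 12.64 FPKM in Xu142. Gh_D06G2290 had 6.74, 6.42 and 6.76 FPKM in Xu142fl and 40.66, 34.16 and 36.50 FPKM in Xu142. Their highest mutant value was 20, 19.98 and 19.79% of the lowest wild-type value. Just outside, Gh_D07G1797 had 4.24, 3.44 and 1.61 FPKM in Xu142fl and 36.87, 21.17 and 25.21 FPKM in Xu142. Gh_A07G1158 had 1.25, 0.82 and 1.12 FPKM in Xu142fl and 6.68, 6.13 and 7.46 FPKM in Xu142. Gh_D06G2014 had 0.73, 1.13 and 0.64 FPKM in Xu142fl and 6.27, 5.88 and 5.53 FPKM in Xu142. The genes on both sides of the limit overlapped in level.

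Predicted new genes took a larger share of the members than of all expressed genes. They made up 29 of the 150 members (19.3%), against 5.75% of the 37862 genes with at least 2 FPKM in each Xu142 library. The share was not particular to the members, since 8 of the 25 genes listed at 0 in all 3 Xu142fl libraries were predicted new genes as well. There were 1.33 members for 100 such predicted genes, beside 0.285 for the A subgenome, 0.369 for the D subgenome and 1 for scaffolds. The predicted members were weakly expressed, with means of 2.16 to 16 FPKM in Xu142 and medians of 0.180 FPKM in Xu142fl and 4.18 FPKM in Xu142. In 12 of the 29, 1 or 2 Xu142fl libraries were at 0. Their median coefficient of variation among the Xu142fl libraries was 74.2%, against 25.9% for the D subgenome members and 28.8% for the A subgenome members.

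Along the chromosomes the members were scattered. There were 49 on the A subgenome (32.7% of members, against 45.4% of the expressed genes) and 66 on the D subgenome (44.0%, against 47.3%). Fewer members than expressed genes were placed on chromosomes (76.7%, against 92.7%), which lowers both shares. Another 6 lay on scaffolds (4%, against 1.58%). The count per chromosome ranged from 0 on A04 to 10 on D05. A06 held 8 members, or 0.697 for 100 expressed genes, and D03 held 6, or 0.615 for 100. D05 is rich in expressed genes, so its 10 members came to 0.480 for 100, less than on A06 or D03. The value was 0.396 over all genes and 0.328 over the genes placed on chromosomes. None of 20 DNA replication genes and none of 5 phospholipid synthesis genes was a member. Those lists were drawn up by the study from genes higher in Xu142fl, so this count followed from how they were made.

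**Figure D3:**
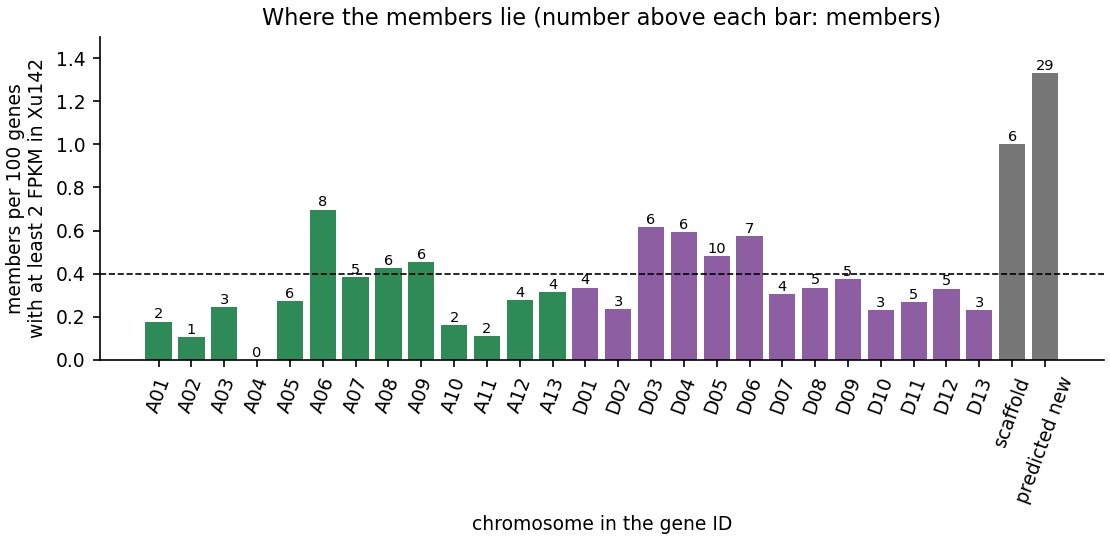
Number of members for 100 genes with at least 2 FPKM in each Xu142 library, by chromosome, scaffold and predicted new genes, with the number of members printed on each bar. The dashed line is the share over all such genes, 0.396; A04 has none and the predicted new genes have 1.33.

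Only 2 members had another member within 5 gene numbers, Gh_D01G0315 and Gh_D01G0317. Gh_D01G0315 had 0.15, 0 and 0.13 FPKM in Xu142fl and 9.41, 5.54 and 8.34 FPKM in Xu142. Gh_D01G0317 had 0, 0 and 0.10 FPKM in Xu142fl and 8.72, 8.57 and 11.70 FPKM in Xu142. The gene between them, Gh_D01G0316, did not share the pattern, with 0.11, 0.21 and 0.10 FPKM in Xu142fl and 0.23, 0 and 0 FPKM in Xu142 (adjusted p = 0.491 by limma). Gh_D01G0314 had 0.11, 0 and 0.10 FPKM in Xu142fl and 0.68, 1.16 and 0.43 FPKM in Xu142 (adjusted p = 0.0225 by limma). It was lower in the mutant, at a level near the edge of detection in both lines.

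Among replicates the members varied more than other expressed genes, above all in the mutant. The median coefficient of variation was 33.8% in Xu142fl and 14.5% in Xu142, against 13.1% in Xu142fl and 9.71% in Xu142 over the 37862 genes. In Xu142fl it was read from low values rounded to 0.01 FPKM. There it was 48.1% for members under 10 FPKM in Xu142, and 16.9% for those of at least 100 FPKM. In Xu142 it did not follow the level in this way. It was 15.38% for members under 10 FPKM, 12.48% between 10 and 100 FPKM and 15.04% from 100 FPKM. Each of these was above the 9.71% of the 37862 genes, and the source of this was not tested. In the wild type 53 members varied by less than 10% and 5 by more than 40%. The most variable of these, Gh_D11G0391, had 0.71, 1.17 and 0.53 FPKM in Xu142fl and 31.14, 6.93 and 17.86 FPKM in Xu142. In 4 of these 5 genes Xu142 replicate 2 was the lowest wild-type library. The exception was Gh_A11G2882, with 0.72, 0.51 and 0.17 FPKM in Xu142fl and 4, 8.95 and 4.94 FPKM in Xu142.

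Because the rule set limits on every library, the difference between the lines could not rest on a single one. Each library was compared with the mean of the other libraries of its line on the scale of log2(FPKM + 0.1). The median deviation over members was 0.05, -0.01 and -0.01 in Xu142fl replicates 1 to 3 and 0.08, -0.12 and 0.03 in Xu142 replicates 1 to 3. Over the 37862 genes it was -0.05, 0.03 and 0.03 in Xu142fl and 0.03, -0.05 and 0.02 in Xu142. Xu142fl replicate 1 alone was the highest mutant library in 63 members (42.0%, against 37.5% of the 37862 genes) and alone the lowest in 44 (29.3%, against 47.7%). Xu142 replicate 2 alone was the lowest wild-type library in 78 members (52.0%, against 49.1%). It was alone the highest in 49 members (32.7%, against 34.0%), so members went both ways. The median deviations of the 2 libraries that stood apart pointed slightly toward the other line. Most of these shares were near those over the 37862 genes, and the rule itself had set the gap between the lines.

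**Figure D4:**
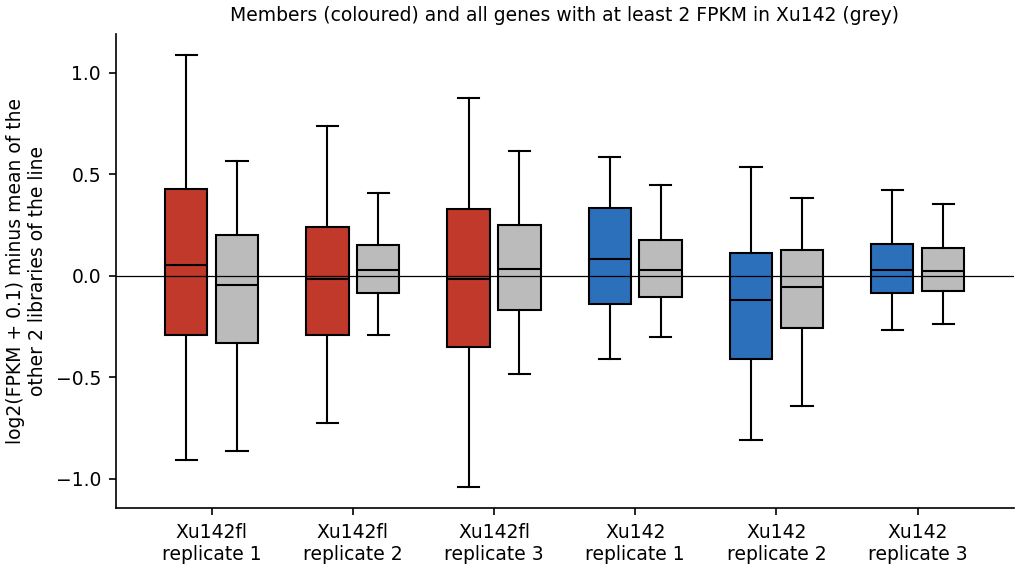
Deviation of each library from the mean of the other 2 libraries of its line on the log2(FPKM + 0.1) scale, for the 150 members beside the 37862 genes with at least 2 FPKM in each Xu142 library. Boxes show the median and quartiles and whiskers the central 90% of genes; all medians lie between -0.12 and 0.08, and the boxes of the members are wider.

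limma was run on log2(FPKM + 0.1) for 56395 genes, those whose mean reached 0.1 FPKM. A call needed a change of 2-fold or more and a p of at most 0.001 after Benjamini-Hochberg adjustment. Lower in Xu142fl were 0.555% of all tested genes, and higher were 0.195%. Of the members 107 were called lower and none higher. At an adjusted p of at most 0.05, 4.47% of tested genes were called lower and 1.67% higher, and all 150 members were called lower. Nothing is read from the members' counts, since the rule chose them for this contrast. The median log2 fold change of members on this scale was -3.63, with a range of -10.21 to -2.33, beside 0.01 over all tested genes.

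The number of genes past the strict limit fell with a library left out, among the members and over all tested genes alike. With all libraries 107 members were called, and 423 genes over all in either direction. Without Xu142fl replicate 1, 2 or 3 the call was made for 83, 26 or 51 members, and over all genes for 273, 46 or 95. Without Xu142 replicate 1, 2 or 3 it was made for 23, 43 or 12 members, and over all genes for 51, 108 or 37. Without both libraries that stood apart it was made for 55 members, and over all genes for 151. Only 12 members passed 0.001 in all 6 fits that left out a library, while 149 passed 0.05 in all 6.

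Genes next to the members were examined because they did not themselves enter as members. For 114 of the 115 members placed on chromosomes, 333 tested non-members lay within 2 gene numbers. Most of these neighbours were not called in either direction at an adjusted p of at most 0.05. Their median log2 fold change was -0.03, beside 0.00 over the 49386 placed non-members, and 54.1% were below 0, beside 49.8%. Regardless of sign, the median log2 fold change was larger in the neighbours, 0.354 beside 0.280. Called lower at 0.05 were 26 neighbours (7.81%, against 4.25% of placed non-members), and called higher were 12 (3.6%, against 1.35%). Without Xu142fl replicate 2 the lower count was 15 (4.55%, against 2.43% of placed non-members in the same fit). It was 15 without Xu142 replicate 1 (4.59%, against 2.28%) and 17 without Xu142 replicate 3 (5.15%, against 2.21%). The counts of neighbours and of the other genes thus fell together. Members were left out of both the neighbours and the other placed genes, so both lower counts lack such genes by construction. Few neighbours were left out this way, since only 2 members had another member within 5 gene numbers. No test of these shares was made.

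At an adjusted p of at most 0.001, 5 neighbours were called, 4 higher (1.20%, against 0.144% of placed non-members) and 1 lower (0.300%, against 0.356%). They are named here after their values were seen. Gh_A06G1257 had 82.42, 79.92 and 80.32 FPKM in Xu142fl and 8.15, 5.48 and 7.19 FPKM in Xu142 (log2 fold change 3.54, SE 0.15, adjusted p = 6.05e-05 by limma). It lies 2 numbers after the member Gh_A06G1255, which had 0.03, 0.09 and 0 FPKM in Xu142fl and 10.94, 8.23 and 9.10 FPKM in Xu142. The libraries of the lines did not overlap in Gh_A06G1257, while in Gh_A06G1255 the rule itself had fixed the direction. Gh_A08G0742 had 4.79, 4.95 and 5.30 FPKM in Xu142fl and 0.11, 0.07 and 0.07 FPKM in Xu142 (log2 fold change 4.81, SE 0.22, adjusted p = 8.59e-05 by limma). It lies next to the member Gh_A08G0741, which had 1.32, 0.77 and 0.72 FPKM in Xu142fl and 12.43, 14.31 and 12.25 FPKM in Xu142. With a library left out, the adjusted p was between 0.000156 and 0.00131 for Gh_A06G1257 and between 0.000557 and 0.00216 for Gh_A08G0742. Both calls at 0.001 were lost without Xu142fl replicate 2 or Xu142 replicate 3, and that of Gh_A08G0742 also without Xu142fl replicate 3.

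Gh_D03G1578 had 19.12, 24.91 and 32.23 FPKM in Xu142fl and 3.62, 2.76 and 3.72 FPKM in Xu142 (log2 fold change 2.86, SE 0.21, adjusted p = 0.000589 by limma, at most 0.00671 with a library left out). Its call at 0.001 held without Xu142fl replicate 1 and was lost without any other library. Its neighbour is the member Gh_D03G1579, with 0, 0.20 and 0.07 FPKM in Xu142fl and 7.01, 3.81 and 7.28 FPKM in Xu142. Here too a higher gene lay beside a lower one. Gh_A09G1979, 2 numbers after the abundant member Gh_A09G1977, had 0.99, 0.95 and 1.11 FPKM in Xu142fl and was listed at 0 in all 3 Xu142 libraries (adjusted p = 0.000981 by limma). Gh_A07G0027 was the 1 neighbour called lower, listed at 0 in all 3 Xu142fl libraries and with 3.83, 1.99 and 3.26 FPKM in Xu142 (adjusted p = 0.000384 by limma). It follows the member Gh_A07G0026, which had 0.36, 0.50 and 0.62 FPKM in Xu142fl and 12.18, 7.75 and 11.90 FPKM in Xu142. With any library left out, the adjusted p of Gh_A09G1979 and Gh_A07G0027 was above 0.001, at most 0.0108 and 0.00592. Whether a member and its neighbour share reads or transcript models was not tested.

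**Figure D5:**
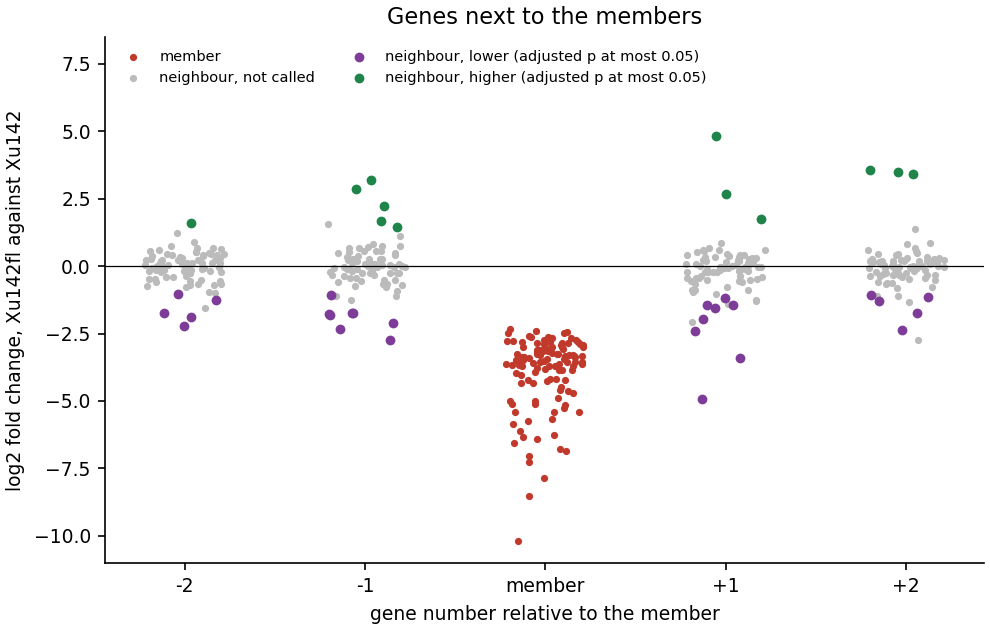
Log2 fold change (Xu142fl minus Xu142, log2(FPKM + 0.1) scale) of the 115 placed members in red and of the 333 tested neighbours, by gene number relative to the member. Neighbours past an adjusted p of 0.05 and a 2-fold change are colored by direction, 26 lower and 12 higher, and most of the others lie near 0 on both sides of the members.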

How the data were processed

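Ovule RNA (-3 and -1 DPA, mixed) was sequenced for 3 libraries of Xu142fl and 3 of Xu142. Reads were mapped by the authors to the genome of the cotton line TM-1, and new transcripts were predicted with HISAT2 (2.1.0 in the submitters' processing notes) and StringTie. The authors obtained FPKM by RSEM, scaled for transcript length and mapped reads, and deposited them with 2 decimals. Read counts were not used here, so the DEGseq test of the methods was not run.

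Members were found on the FPKM as deposited. The members and gene lists were chosen with earlier results of these data known. Genes whose mean reached 0.1 FPKM were compared as log2(FPKM + 0.1) by limma 3.58.1 (R 4.3.3, trend on intensity), and p-values were adjusted by Benjamini-Hochberg over 56395 genes. The step was tested on simulated data. A fold change on this scale understates that of low genes. With 3 libraries against 3, an exact permutation test of a single gene cannot give a p below 0.1. Folds of means use FPKM without a pseudocount.

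The genes named are the 10 members highest in Xu142, the 5 with the lowest ratio, the 5 highest in Xu142fl, members within 5 gene numbers of another and 3 genes on each side of the limit. Others are marked in the text. Of 65894 IDs, 0 were found in the RefSeq genes of Gossypium_hirsutum_v2.1, so no coordinates or sequences are given. Gene names that stand only in a picture of the study were not used. Alternatives were other pseudocounts, filters, scalings and limits, fits with a replicate block and fits that left out each library. A fit without Xu142fl replicate 1 and Xu142 replicate 2, and the neighbours under every fit, were added after seeing the data. Python 3.11.15, pandas 2.3.3, numpy 2.4.6 and matplotlib 3.10.9 were used.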

Additional observations from a re-analysis of the deposited data

How the results depend on the processing

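All 150 members had a negative log2 fold change under every alternative. The rule had fixed this sign, since every Xu142fl value was at most 1/5 of every Xu142 value. At 0.05, 149 or 150 were called in every fit, in genes chosen for this contrast. The strict limit was less stable. Members called at 0.001 numbered 107, and 12 to 83 with each library left out in turn, 55 without Xu142fl replicate 1 and Xu142 replicate 2, and 1 with the replicate number as a block. Over all genes 423 were called at 0.001, against 37 to 273 with a library left out, 151 without those 2 libraries, 2 with the block and 3463 at 0.05. Whether the replicate numbers pair the libraries was not stated. Deviations of same-numbered libraries from their line means correlated at -0.246, -0.233 and 0.138 across genes. Deviations within a line are tied to each other, so these values do not settle it. The block fit is given in this section alone. The rule found 150 genes, and 87 with at least 5 FPKM in Xu142, 66 with a limit of 1/10, 320 with a limit of 1/3 and 274 without the 2 libraries, of which 144 were members. With a library left out it found 158 to 220. Members with another nearby numbered 2, and 0 at 1 gene number and 6 at 20. The median log2 fold change of -3.63 was -2.49 with a pseudocount of 1 and -3.94 with 0.01, and -3.72 to -3.56 with a library left out. Neighbours called lower at 0.05 numbered 26, and 16 with a pseudocount of 1, 17 with a filter of 1 FPKM, 17 with the block and 15 to 29 with a library left out. Those called higher numbered 12, and 9 to 13 with a library left out. In the main fit 7.81% of neighbours were called lower, against 4.25% of placed non-members. With a pseudocount of 1 it was 4.8%, against 2.32%, and with the block 5.11%, against 2.54%. The filter left 264 tested neighbours, of which 6.44% were called lower, against 4.07%. Both shares thus fell in these fits, and that of the neighbours stayed the larger. No test of these shares was made. Of 190 recomputed fold changes of the 19 named members, 20 moved by more than the spread between libraries, 11 of them with a pseudocount of 1. The count of reversed signs was 0, which the rule had fixed as well.

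The FPKM hold no read counts, so traces of 0.02 to 0.10 FPKM in Xu142fl cannot be given a counting error, and a member at this level differs from a gene listed at 0 by an unknown number of reads. Reads shared by A and D copies were divided by RSEM. Ovules of 2 stages were mixed in unstated shares, which cannot be told apart from the line. With 3 libraries a line, no outlier test was made.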

Other observations

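The reverse rule, at least 2 FPKM in each Xu142fl library, a highest Xu142 value of at most 1/5 of the lowest Xu142fl value and at least 1 Xu142 value above 0, found 60 genes. The rule for reduced genes had found 152 before 2 were set aside.

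Chromosome D05 held 5 of its 10 members between gene numbers 866 and 1005, a stretch chosen after its values were seen. The table lists 129 genes there. Of the 106 tested genes that were not members, 2 were called lower and 2 higher in Xu142fl at an adjusted p of at most 0.05 by limma, and their median log2 fold change was -0.01. Over all placed non-members 4.25% were called lower and 1.35% higher. Most tested non-members of this stretch were thus not called at this limit. A median of signed changes does not give their size, which was not measured here.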
